A study of Zea mays with 24 samples.

Results

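The genes described here share an expression pattern across 6 dissected parts of the maize seed: they were expressed at similar levels in the embryo (Emb), the apical scutellum (AS) and the scutellar aleurone layer (SAL), and at clearly lower levels in the endosperm (End), the endosperm adjacent to the scutellum (EAS) and the pericarp (Per). Members were chosen on mean CPM (read counts scaled to a library of 1 M reads): Emb, AS and SAL each had to reach 5 CPM, lie within 4-fold of each other, and the lowest of the 3 had to be at least 4 times the highest of End, EAS and Per. Of 41614 genes listed, 26495 passed the filter on low counts and 42 met the rule. All 42 passed that filter. The deposited counts name genes by identifier, and 0 of the identifiers matched the gene table at hand, so no gene name, function or sequence is given, the tissue labels could not be checked against marker genes, and only a few identifiers are printed.

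Each tissue had 4 libraries of wild-type seeds of the inbred line B73, although for SAL replicate 1 only the wild-type state, and no line, is stated. All plants were untreated and came from a greenhouse with days of 24 °C, nights of 19 °C and a 16-h light period at 100 W per m2. Each extraction used 100 mg of tissue according to the labels. The age of the seeds is not stated in the labels, and whether AS was part of the material taken as Emb, or EAS and SAL part of that taken as End, is not stated either. Libraries held between 15125315 and 61083121 reads counted in genes. The shallowest was SAL replicate 2, and every other library held at least 37574771. In single libraries, 3 reads corresponded to 0.0450 to 0.162 CPM. The EAS libraries stood apart from each other for the 42 genes, replicates 2 and 4 above replicates 1 and 3, and the counts and medians of the EAS comparisons are also given without each of those pairs. The design text calls the replicates biological, but nothing says how many plants each pooled, so the tests weigh differences against the variation among these libraries, most of which carry different harvest days within a tissue.

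In the maize kernel the embryo and the aleurone, the outermost cell layer of the endosperm, are the living tissues of the mature seed, whereas the starch-filled inner endosperm dies during maturation. The scutellum is the shield-shaped embryo organ pressed against the endosperm. It and the aleurone are the main sites of oil storage, while the inner endosperm stores starch and zein proteins. The pericarp is the maternal fruit wall. The scutellar aleurone lies where the endosperm meets the scutellum, so the 3 tissues that share these genes come from both the embryo and the endosperm.

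The contrast with End, EAS and Per removed most genes. Emb, AS and SAL all reached 5 CPM for 14169 genes, and 13198 of these were within 4-fold of each other. Without the limit of 4-fold among Emb, AS and SAL, 55 genes were at least 4 times above the other tissues, and with it 42 were. The same rule was applied to each of the 20 possible sets of 3 tissues. SAL with End and EAS gave 59 genes, Emb with AS and Per 48, and Emb with AS and SAL came next with its 42. No gene met the rule in 10 of the 20 sets, among them AS with SAL and End, and AS with SAL and EAS.

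The 42 genes together took 0.396% ± 0.00471 of the scaled reads in Emb, 0.422% ± 0.0150 in AS and 0.220% ± 0.0263 in SAL (mean ± SD, n = 4). In the other tissues they took 0.0305% ± 0.00421 in End, 0.0172% ± 0.00495 in EAS and 0.0291% ± 0.00137 in Per. Summed over the 42 genes, the 4 Emb libraries held between 3895 and 4002 CPM, the AS libraries 4107 to 4432, and the SAL libraries 1932, 2467, 2381 and 2020.5 CPM for replicates 1 to 4. End libraries ranged from 267 to 347 CPM, EAS libraries from 124 to 219.7 and Per libraries from 277 to 308. The 12 libraries of Emb, AS and SAL all lay above the 12 others, and this held for each of the 42 genes separately, against 5.31% of all 26495 genes. The rule fixed that contrast, so these values describe the set. Because the samples are bulk tissue, fewer cells expressing a gene and less RNA per cell cannot be told apart.

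**Figure D1:**
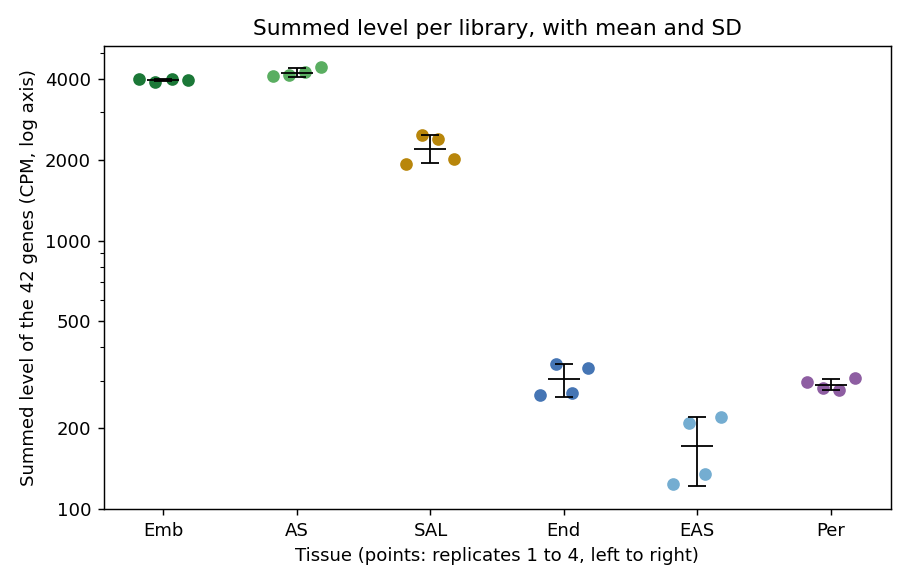
Summed level of the 42 genes in each library, in CPM on a log axis, by tissue. Points are the 4 libraries, bars the mean ± SD, and the SAL libraries, at 1932 to 2467 CPM, lie between the Emb and AS libraries and those of End, EAS and Per, which reach at most 347 CPM.

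A few genes carried much of the sum: the top 3 of each tissue held 40.0% of it in Emb, 38.6% in AS and 30.3% in SAL. Over the 42 genes, the lowest of the Emb, AS and SAL means ran from 5.67 to 252 CPM with a median of 22.4, and it was at least 20 CPM for 23 genes and at least 100 CPM for 7. The fold of that lowest mean over the highest of End, EAS and Per ran from 4.03 to 32.8 with a median of 5.77. It was under 5 for 17 genes and 10 or more for 5. The median of the 42 tissue means was 41.3 CPM in Emb, 48.8 in AS, 28.8 in SAL, 2.85 in End, 1.58 in EAS and 3.22 in Per. Means under 1 CPM were found for 17 of the genes in EAS, 10 in End and 4 in Per, but each of the 42 had reads in every library. CPM does not correct for transcript length, and levels are therefore compared between tissues for a given gene.

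Zm00001d047054 took the most reads by the lowest of the 3 means. Its libraries held 515, 550.4, 495 and 526 CPM in Emb, 379, 459, 356 and 359.9 in AS and 230.1, 294, 262 and 223 in SAL, in the order of the replicates. The low tissues held 43.6, 54.3, 42.3 and 61.4 CPM in End, 18.9, 33.6, 19.3 and 37.9 in EAS and 40.1, 42.3, 37.0 and 36.9 in Per. Its Emb libraries were above all AS libraries, its AS libraries above all SAL libraries, and EAS replicates 2 and 4 above EAS replicates 1 and 3. Zm00001d005016, the second by the same measure, had 568 ± 36.2 CPM in Emb, 657 ± 35.9 in AS and 239 ± 34.9 in SAL (mean ± SD, n = 4). It had 53.6 ± 6.23 CPM in End, 31.9 ± 4.63 in EAS and 32.6 ± 2.13 in Per.

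The largest fold over the low tissues was that of Zm00001d047559, at 32.8. Its libraries held 39.4, 42.7, 47.0 and 46.4 CPM in Emb, 65.9, 62.9, 70.4 and 69.5 in AS and 30.6, 39.1, 43.0 and 36.0 in SAL. In End they held 0.0892, 0.204, 0.183 and 0.373 CPM, in EAS 0.191, 0.990, 0.487 and 1.68 and in Per 1.31, 1.01, 1.37 and 0.837. End thus held between 3 and 15 reads per library of this gene, and EAS between 8 and 70. Next came Zm00001d019504, 16.1-fold, with 352 ± 6.62 CPM in Emb, 271 ± 37.2 in AS, 147 ± 21.1 in SAL and 9.16 ± 1.24 in Per, its highest low tissue.

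At the limit itself, the genes just inside were Zm00001d043263, with a fold of 4.03, and Zm00001d039650, with 4.05. Those just outside were Zm00001d045480, with 3.96, and Zm00001d034827, also with 3.96. Zm00001d043263 had 19.0 ± 2.45 CPM in SAL against 4.71 ± 0.373 in End, while Zm00001d045480 had 62.2 ± 5.94 against 15.7 ± 1.69. The size of the set depended on this limit: with 3-fold in place of 4-fold the rule found 88 genes, and with 8-fold 9.

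**Figure D2:**
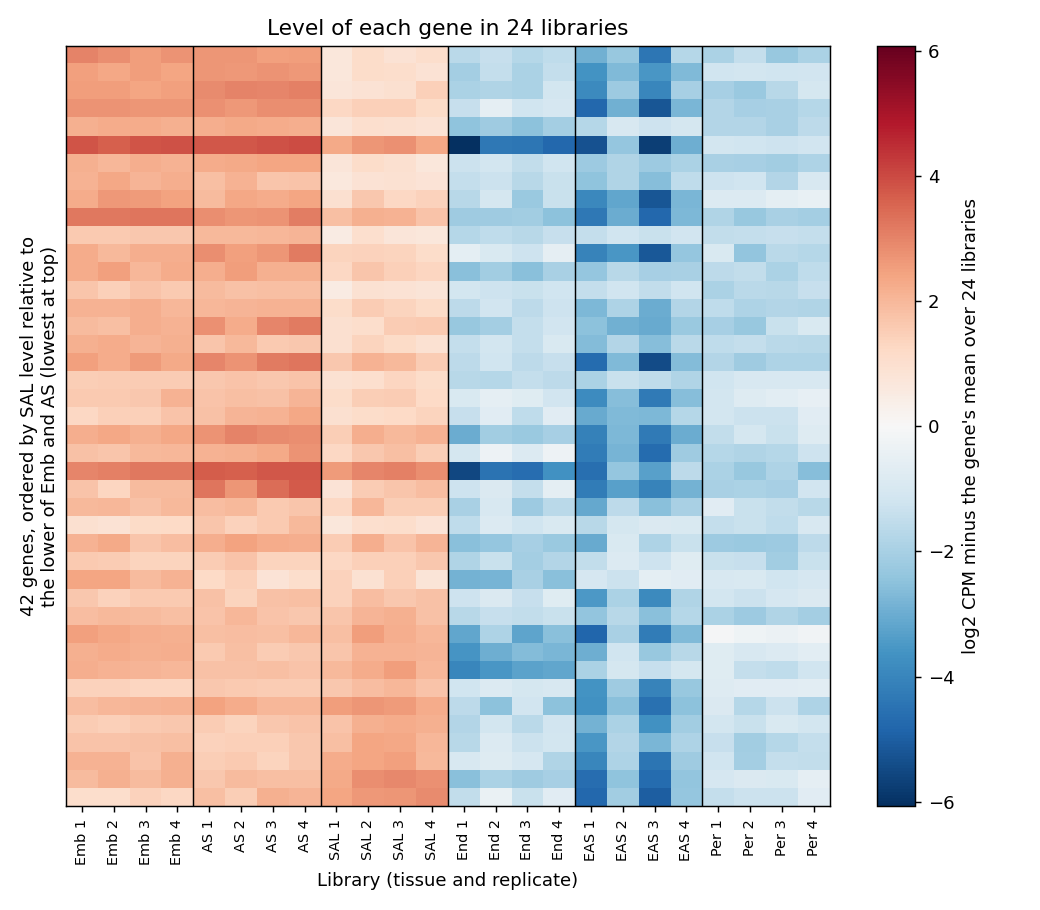
Level of each of the 42 genes (rows) in each of the 24 libraries (columns), as log2 CPM minus the gene's own mean over the libraries; red is above and blue below that mean. Rows run from the lowest to the highest SAL level relative to the lower of Emb and AS, and EAS replicates 1 and 3 are the darkest blue columns for many genes.

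Among the 3 tissues that share the genes, SAL was most often the lowest. Its mean was below both Emb and AS for 29 genes and above both for 9, and the highest of the 6 tissue means was in AS for 23 genes, in Emb for 10 and in SAL for 9. The 4 SAL libraries lay below all 8 Emb and AS libraries for 20 genes and above all 8 for 5, against 30.7% and 34.6% of all 26495 genes. The rule limited this contrast to 4-fold, so no test is given and nothing is read from these counts. Emb and AS were within 2-fold of each other for 40 of the 42 genes. AS was the higher of the pair for 27, by 1.5 times or more for 9, and Emb was higher by that margin for 1. SAL stayed within 2-fold of both Emb and AS for 23 genes.

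The ratio of SAL to the lower of Emb and AS ran from 0.319 to 2.76 with a median of 0.817. Zm00001d039617 had the lowest ratio, with 72.8, 63.4, 51.6 and 59.9 CPM in the Emb libraries, 57.9, 58.3, 50.1 and 51.3 in AS and 14.4, 19.7, 16.4 and 18.9 in SAL. Zm00001d018377 came next at 0.353, with 495 ± 24.8 CPM in Emb, 582 ± 22.0 in AS and 175 ± 21.8 in SAL. For both genes the SAL libraries lay below those of Emb and AS. Zm00001d003762 had the highest ratio, with 6.51, 6.46, 8.14 and 7.57 CPM in Emb, 10.9, 8.69, 14.1 and 13.0 in AS and 16.6, 19.5, 20.2 and 22.7 in SAL. Zm00001d052133 had a ratio of 1.90, with 21.3 ± 2.00 CPM in Emb, 18.1 ± 1.56 in AS and 34.4 ± 6.21 in SAL. In both of these the SAL libraries were above all Emb and AS libraries.

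To place the SAL levels, the 42 genes were set beside every gene that was high in Emb and AS by the same limits, whatever its level in SAL. There were 855 such genes, and their SAL mean was a median 0.147 of the lower of Emb and AS. It was under 0.01 for 109 of them (12.7%), between 0.01 and 0.05 for 113, and at least 0.25 for 247. All 42 members were among the 247, and 194 of the 247 had SAL levels under 4 times their highest low tissue. The SAL libraries are taken from tissue that touches the scutellum, so the amount of embryo signal in them was measured on the 222 genes below 0.05. These summed to 227 to 262 CPM in the SAL libraries, 1.35% to 1.56% of their Emb and AS mean, while the 42 members stood at 47.2% to 60.3% of theirs. The 222 genes were picked for low SAL levels in these libraries, so their share is low by choice, and the part of embryo tissue in the SAL levels of the 42 genes was not tested. SAL replicates 2 and 3, with the highest sums of the 42 genes, had the lowest sums of the 222 genes, at 227 and 234 CPM. The 715 genes with their peak in Per, at least 4 times above every other tissue, were also lowest in these 2 libraries. They summed to 9317, 5175, 6104 and 6949 CPM in SAL replicates 1 to 4. What these orders come from was not tested.

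**Figure D3:**
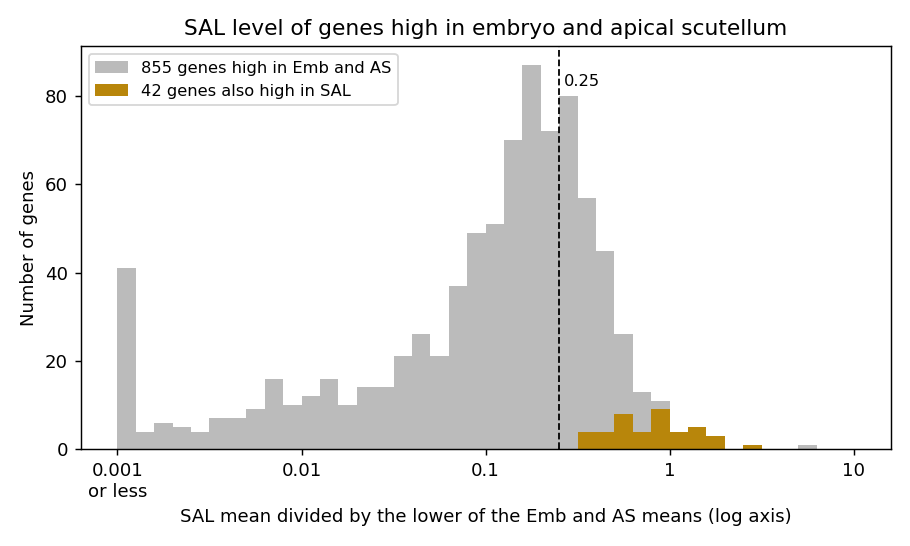
Number of genes by the SAL mean divided by the lower of the Emb and AS means, on a log axis, for 855 genes high in Emb and AS (grey) and the 42 members (gold, drawn over the grey). The members lie between 0.319 and 2.76, to the right of the dashed line at 0.25; ratios of 0.001 or less are drawn at the left edge.

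The rule set a ceiling on End, EAS and Per but did not compare them with each other, and here tests could be run. That ceiling was set on the same libraries and limits how far any of the 3 tissues can rise. The shares over all genes carry no such ceiling, so they are not a like reference for the 42 genes. Each gene was tested with edgeR's quasi-likelihood test in a fit of all 24 libraries, with p-values adjusted over 26495 genes, and was called where the adjusted p was under 0.05 and the difference at least 2-fold. EAS against End, 20 of the 42 genes were called lower in EAS (47.6%) and 6 higher (14.3%), where 16.3% and 8.34% of all genes were called. The 6 became 3 without EAS replicate 2 or without End replicate 1, and 2 without EAS replicates 2 and 4. The median log2 fold change was -0.99 over the 42 genes and -0.01 over all genes. It was -1.87 over the 42 without EAS replicates 2 and 4 and -0.48 without EAS replicates 1 and 3. Per against EAS, 23 were called higher in Per (54.8%) against 31.0% of all genes, with a median log2 fold change of 1.12 against 0.08. Without the same pairs that median was 1.83 and 0.59. None was called lower in Per, where 19.3% of all genes were. DESeq2 also gave 0. With no minimum fold, 3 were lower in Per at an edgeR adjusted p under 0.05, so these missed only the 2-fold limit. Per against End, 8 were called higher (19.0%) and 1 lower (2.38%), against 29.9% and 19.5% of all genes, and the median log2 fold change was 0.14 against 0.12. The 3 comparisons share libraries and are not independent. The fit took a single spread per gene over the 6 tissues, while the EAS libraries varied most for these genes. In fits of only the 2 tissues compared, 21 were called lower and 5 higher in EAS than in End, and 24 higher in Per than in EAS. The genes named below for EAS then had larger adjusted p-values, such as 0.000549 for Zm00001d044078 and 0.0264 for Zm00001d047559 against End (edgeR quasi-likelihood test).

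Put together by gene, 19 of the 42 were called lower in EAS than in both End and Per, and 14 had no call among the 3 tissues. Of the 42, 5 were called higher in Per than in both, 1 of which was also among the 19, and 1, likewise among the 19, was higher in End than in both. The 19 became 27 without EAS replicates 2 and 4 and 7 without EAS replicates 1 and 3. EAS had the lowest mean of the 3 tissues for 30 genes, End for 10 and Per for 2, and EAS had it for 32 and 26 genes without the same pairs. The highest was in Per for 19 genes, in End for 18 and in EAS for 5. Shares of all genes with these joint calls or orders were not measured, so the counts in this paragraph only describe the set.

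**Figure D4:**
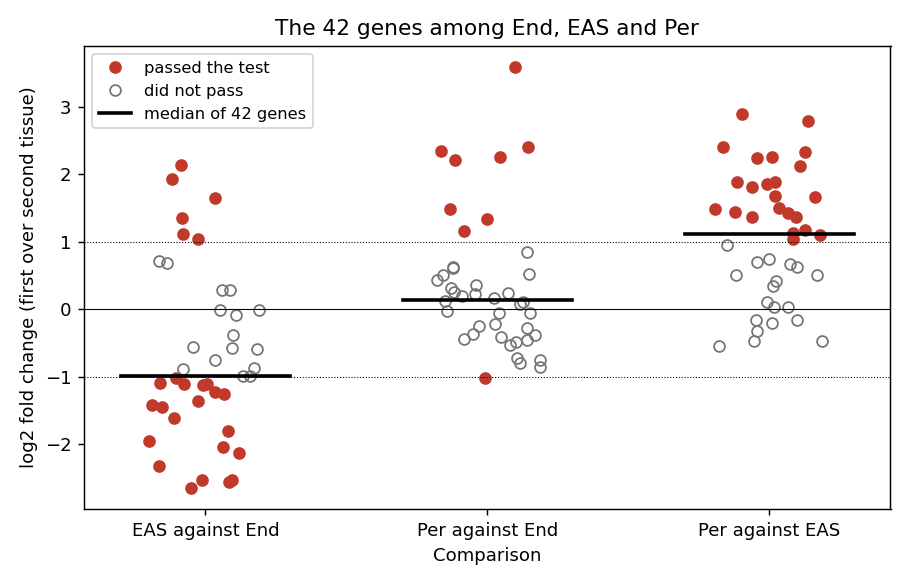
Fitted log2 fold change of each of the 42 genes in the 3 comparisons among End, EAS and Per (first tissue over second). Red filled points passed the test, grey open points did not, the black bar is the median (-0.99, 0.14 and 1.12 from left to right) and dotted lines mark 2-fold.

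The called gene with the lowest EAS level relative to End was Zm00001d044078. Its End libraries held 4.64, 3.75, 2.94 and 4.79 CPM and its EAS libraries 0.405, 0.594, 0.179 and 1.36, with no overlap (edgeR log2 difference -2.65 ± 0.34 SE, adjusted p = 6.59e-07). Zm00001d043709 was next, with 2.70 ± 0.701 CPM in End and 0.454 ± 0.211 in EAS (edgeR log2 difference -2.56 ± 0.36 SE, adjusted p = 2.05e-06). In EAS replicates 1 to 4 the first had 17, 27, 7 and 57 reads and the second 11, 24, 12 and 30. Leaving out EAS replicate 4, its highest EAS library, made the difference of the first larger, at a log2 difference of -3.32. Without EAS replicates 2 and 4 it was -3.76 for the first and -3.24 for the second, and without EAS replicates 1 and 3 it was -2.06 and -2.13. Their SAL means were 17.5 ± 1.44 and 15.8 ± 4.37 CPM. In the other direction, Zm00001d029040 held 0.921, 1.22, 1.498 and 1.61 CPM in the End libraries and 3.86, 7.06, 5.43 and 6.97 in the EAS libraries, again with no overlap (edgeR log2 difference 2.14 ± 0.22 SE, adjusted p = 1.75e-08). In Per it held 8.73, 5.27, 4.94 and 6.34 CPM. Zm00001d047559, described above for its fold, was called higher in EAS as well (edgeR log2 difference 1.93 ± 0.49 SE, adjusted p = 0.00153), but its EAS replicate 1, at 0.191 CPM, lay within the range of the End libraries. Without EAS replicates 2 and 4 that call was lost (log2 fold change 0.60, edgeR adjusted p = 0.271, the highest over the alternatives tried, of which the lowest was 1.39e-06).

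Zm00001d034405 had the largest excess of Per over End, with 7.99, 7.54, 7.23 and 7.75 CPM in Per against 0.238, 0.844, 0.826 and 0.621 in End (edgeR log2 difference 3.59 ± 0.43 SE, adjusted p = 6.71e-08). Its levels in Emb, AS and SAL were 243 ± 15.4, 252 ± 17.7 and 102 ± 16.7 CPM. Zm00001d049324 was higher in Per, at 2.82 ± 0.220 CPM, than in End at 0.528 ± 0.249 (edgeR log2 difference 2.40 ± 0.33 SE, adjusted p = 5.35e-07). The same gene was at 0.397 ± 0.343 CPM in EAS, with 4, 38, 6 and 21 reads in replicates 1 to 4, also below Per (edgeR log2 difference 2.79 ± 0.33 SE, adjusted p = 5.86e-08). That difference was 3.46 without EAS replicate 2, 4.48 without EAS replicates 2 and 4 and 2.06 without EAS replicates 1 and 3. The single gene called lower in Per than in End, Zm00001d011755, had 4.83 ± 0.915 against 9.75 ± 2.52 CPM (edgeR log2 difference -1.02 ± 0.28 SE, adjusted p = 0.00231). It lay at the 2-fold limit, and leaving out End replicate 2 or 4 or Per replicate 1, 2 or 3 put it just under, at log2 fold changes of -0.99 to -0.91. Its Per replicate 4, at 6.19 CPM, lay above the other Per libraries. The largest excess of Per over EAS was that of Zm00001d052424, with 1.95, 2.00, 2.32 and 2.62 CPM in Per and 0.215, 0.374, 0.0769 and 0.503 in EAS, where it had only 9, 17, 3 and 21 reads (edgeR log2 difference 2.90 ± 0.30 SE, adjusted p = 5.52e-09). It was 3.88 without EAS replicates 2 and 4 and 2.34 without EAS replicates 1 and 3.

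The EAS libraries stood in a marked order for these genes, which the End libraries shared for many of them. Replicates 2 and 4 were both above replicates 1 and 3 for 38 of the 42 genes (90.5%), where 19.5% of all 26495 genes showed that order. The summed level of the 42 genes was 124 CPM in EAS replicate 1, 209 in replicate 2, 135 in replicate 3 and 219.7 in replicate 4. An example, chosen after its values were seen, is Zm00001d034405, with 0.429, 3.39, 0.308 and 2.23 CPM in the EAS libraries. In End, replicates 2 and 4 were also the highest for 29 of the 42 genes (69.0%, all genes 20.4%), with smaller differences: the sums were 267, 347, 270.0 and 335 CPM. In SAL the order was another one, with replicates 2 and 3 highest for 27 genes (64.3%, all genes 15.5%). The SD over EAS libraries was a median 51.5% of the mean for the 42 genes and 13.5% for all genes with EAS means in the same range. That range was 0.292 to 31.9 CPM, while the median EAS mean of the 42 genes was 1.58 CPM. The reference genes were thus not matched on level, and the part of counting noise in the gap was not tested. Percentages found in the same way were 22.2% and 12.2% in End and 14.8% and 11.4% in Per. In SAL they were 14.4% for the 42 genes and 6.41% for all genes at 5 CPM or more in Emb, AS and SAL, and in Emb 7.35% and 6.56%.

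**Figure D5:**
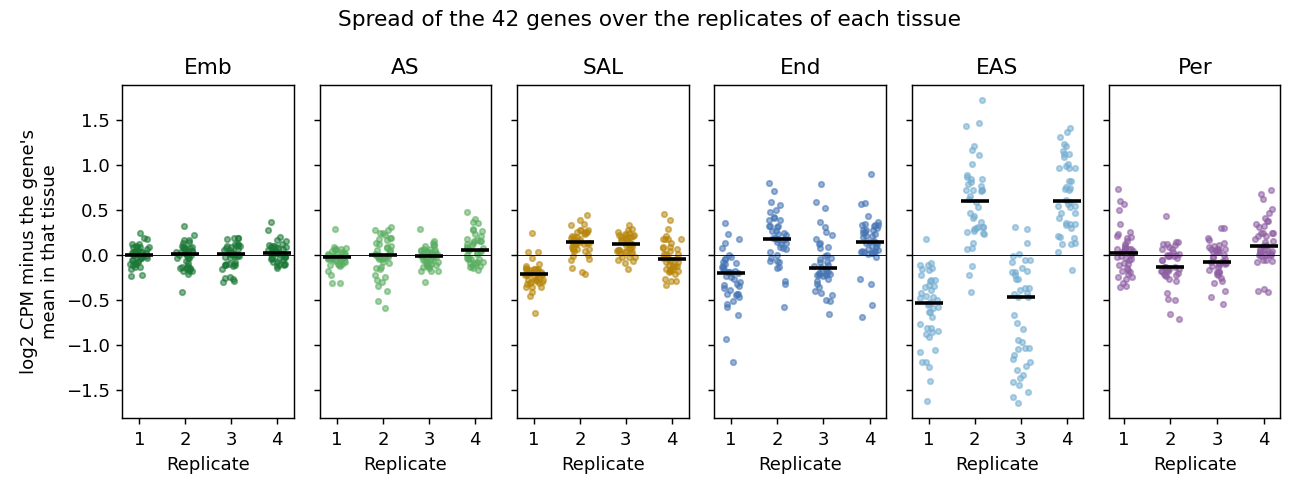
Spread of the 42 genes over the replicates of each tissue, as log2 CPM minus the gene's mean in that tissue. Each point is a gene and each black bar the median of a library, and EAS replicates 2 and 4 lie above EAS replicates 1 and 3 for 38 genes.

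Genes of other tissues were measured in the same EAS libraries. The 129 genes with their peak in SAL, at least 4 times above each of the other 5 tissues, summed to 586, 818, 401 and 847 CPM in EAS replicates 1 to 4, so they too were highest in replicates 2 and 4. That order held for 92 of the 129 genes (71.3%). Relative to the SAL mean, these genes stood at 5.08%, 7.08%, 3.47% and 7.33% in the 4 EAS libraries and the 42 genes at 5.64%, 9.51%, 6.13% and 9.98%. The 222 genes of Emb and AS with little SAL signal summed to 99.1, 107, 107 and 115 CPM in the EAS libraries, and 51 of them (23.0%) had replicates 2 and 4 highest. In End the SAL-peak genes were at 1222 to 1530 CPM and in Per at 1761 to 2253 CPM, above all EAS libraries. The summed level of the 42 genes, too, was higher in every End and Per library than in any EAS library. The part of aleurone signal in these differences was not tested. Without EAS replicates 1 and 3, 10 of the 42 genes were called lower in EAS than in End instead of 20, and 14 instead of 23 were called higher in Per than in EAS. Without EAS replicates 2 and 4 the counts were 27 and 30.

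Replicates with the same number share a harvest day in the labels, apart from 3 labels that are out of step or missing, which allowed a test of harvest. The 5 libraries labelled 18 May were compared with the other 15 of Emb, AS, End, EAS and Per, with tissue as a term and SAL left out because its replicate 4 has no date. These 5 are all replicate 4 of their tissue and carry the same date, so they stand for a single late harvest. The test counts them as independent and cannot tell harvest day from replicate number. Emb replicate 1 and EAS replicate 3, whose dates differ from the others of their number, counted as other days. None of the 42 genes was called (edgeR quasi-likelihood test, adjusted over 26035 genes), where 0.0115% of all genes were called higher and 0.00384% lower. DESeq2 gave 0 as well, and at an unadjusted p under 0.05 there were 6, all higher on 18 May, which is 6 of 42 against 12.4% of all genes. The median log2 fold change was 0.16 over the 42 genes and 0.01 over all genes, and 38 of the 42 were above 0 against 51.8% of all genes, with a highest value of 0.56. A test of any difference among the 4 replicate numbers, added after the data were seen, called none of the 42 genes in End, EAS and Per (edgeR quasi-likelihood test, all genes 0.270%). There 12 had an unadjusted p under 0.05, and DESeq2 called 1. Shares of all genes at an unadjusted p or by DESeq2 were not at hand for the replicate numbers. Nothing is therefore read from such counts, here or in the next 3 tissues. In Emb, AS and SAL the edgeR test of replicate numbers called 1 (all genes 0.219%), Zm00001d043509 (edgeR adjusted p = 0.0378), with 12 at an unadjusted p under 0.05 and 5 called by DESeq2. That gene held 54.1, 61.8, 62.4 and 76.3 CPM in Emb replicates 1 to 4, 77.1, 95.9, 97.8 and 116 in AS and 45.3, 50.2, 53.4 and 58.5 in SAL, and its call was lost when any 1 of the AS libraries, the Emb libraries or SAL replicate 4 was left out.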

How the data were processed

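For each library the authors deposited 1 table of raw counts, as whole numbers of reads per gene, with 5 summary rows. TruSeq libraries from poly(A) RNA were sequenced in pairs without strand information, per the labels' protocols. TopHat2, Bowtie2 and B73 RefGen_v4 are listed in the submitters' processing notes, while tool versions, the annotation release and counting options were not given in the sources used here. By the summary rows, 7.81% to 16.2% of a library was not unique, 4.24% to 6.41% fell in no feature and 1.07% to 2.63% was ambiguous. Reads that were not unique are missing from the gene counts, so near-identical gene copies are uncertain, and overlapping genes on opposite strands cannot be told apart.

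Summary rows and 154 microRNA loci were dropped, genes kept by filterByExpr (minimum count 10, tissue as group), and CPM computed on TMM-scaled library sizes in R 4.3.3 with edgeR 4.0.16. Tests were glmQLFTest on a fit with tissue alone, adjusted by Benjamini-Hochberg, and DESeq2 1.42.0 was an alternative. The SE is the size of the log2 fold change divided by the square root of F. The tests of EAS against End and of replicate numbers were also run on simulated counts, with independent libraries and the same spread for every gene and tissue. The larger spread of the EAS libraries, the correlation of same-numbered libraries and the harvest test were not simulated. Members, lists and tests were chosen with earlier results of these data known. The gene lists and markers planned by name could not be used, since 0 identifiers matched the table of 49888 genes of Zm-B73-REFERENCE-NAM-5.0, and by rule at most 2 identifiers per direction are named in a comparison, with 2 at each side of the limit. Libraries within a tissue differed beyond counting noise (chi-square per degree of freedom at least 7.32). Same-numbered libraries share a harvest day per the labels, except EAS replicate 3, Emb replicate 1 and SAL replicate 4. Their deviations correlated across all genes at a median of 0.0772, against -0.0294 for different numbers. Across the members alone the values depended on the tissue pair and could be much larger. In the order of the replicates, AS with Emb gave 0.469, 0.86, 0.661 and 0.56. EAS with End gave 0.517, 0.498, 0.0775 and 0.0593, and EAS with Per -0.113, -0.106, -0.271 and 0.012. Values of the members for different numbers were not at hand.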

Additional observations from a re-analysis of the deposited data

Results flagged for a closer look

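In 132 sets of 4 libraries, 6 (4.55%) held a library far from the other 3. Chance alone flags about 1 in 20 such sets, but these sets share the same 24 libraries, and 4 of the 6 fell in Per replicate 4; whether they arose by chance was not tested. Those in other libraries were Zm00001d044078 in Emb replicate 2 (27.2 CPM) and Zm00001d019504 in End replicate 4 (6.61 CPM), both low. The other 4 were in Per replicate 4, each high: Zm00001d003762 (1.96 CPM), Zm00001d043709 (2.42 CPM), Zm00001d011755 (6.19 CPM) and Zm00001d045480 (8.83 CPM), the last just outside the set.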

How the results depend on the processing

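The set held 37 genes with DESeq2 size factors, 43 without a low-count filter and 44 with medians, and 38 to 48 with a library left out. The limits moved it more: 9 genes at 8-fold over the low tissues and 88 at 3-fold, 23 within 2-fold among Emb, AS and SAL, and 23 at 20 CPM. Without EAS replicates 2 and 4 it held 43, and without EAS replicates 1 and 3 it held 38. Of 71 alternatives other than leaving out a single library, 59 were within 1.5 times the reported count. These 59 include counts that were 0 and stayed 0, such as those for harvest, which say little about stability. With a replicate block the calls among the 42 genes were 21 lower and 6 higher in EAS against End, 8 higher and 1 lower in Per against End, and 23 higher in Per against EAS, and it moved no count by over 1.5 times. No such block could be added to the harvest test, because the date is the number. Without a minimum fold, Per against End gave 13 higher and 7 lower, and Per against EAS gave 3 lower. Leaving out single libraries gave 3 to 6 higher and 14 to 24 lower in EAS against End, with 3 higher without EAS replicate 2 or without End replicate 1. It gave 7 to 9 higher and 0 to 1 lower in Per against End, 20 to 25 higher and 0 lower in Per against EAS, and 0 in either direction for harvest. Without EAS replicates 2 and 4, 2 genes were higher in EAS than in End. Without EAS replicates 1 and 3, 10 were lower in EAS than in End and 14 higher in Per than in EAS. For replicate numbers the calls were 0 in End, EAS and Per and 0 to 1 in Emb, AS and SAL with a library left out, and 1 and 5 with the DESeq2 likelihood ratio test. The alternatives that leave out EAS replicates together and all those for replicate numbers were chosen after seeing the data. Other than for the construction of each alternative, the cause was not tested. With the fewest reads, SAL replicate 2 measures low genes least precisely.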

Other observations

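MicroRNA precursor loci were not part of the set. Of 154 listed, 48 passed the low-count filter and 1 met the folds of the rule without reaching 5 CPM in SAL, MIR166d, a locus of the MIR166 family, known for silencing HD-ZIP III transcription factors. Its precursor was at 6.10 ± 0.941 CPM in Emb, 6.64 ± 1.59 in AS and 4.22 ± 0.809 in SAL (mean ± SD, n = 4). It was at 0.238 ± 0.151 CPM in End, 0.134 ± 0.0972 in EAS and 0.211 ± 0.0492 in Per. Its EAS libraries held 0.0477, 0.220, 0.0513 and 0.215 CPM for replicates 1 to 4, with replicates 2 and 4 above the others, and its End libraries 0.119, 0.436, 0.122 and 0.273 CPM. Several of these values rest on few reads, 3 reads being 0.0450 to 0.162 CPM in a library.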
